A study of Mus musculus with 12 samples.

Results

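Aquaporins are membrane channels that carry water, and the aquaglyceroporins among them also carry glycerol, a small molecule that binds water in the outer skin. Hyaluronan is a long sugar chain that holds water between cells and is made by hyaluronan synthases at the cell membrane. The study reported higher water loss and lower hydration of the skin in mice lacking epidermal Pparg. The skin sections shown with those measurements came from a hairless strain, and the strain measured was not named there. The mice sequenced here were of another strain, and water loss was not stated to be measured in them. The question addressed was how transcripts of 10 water channel, glycerol and hyaluronan genes differed in epidermis lacking Pparg. The genes were Aqp1, Aqp3, Aqp5, Aqp7, Aqp9, Aqp11, Gpd1, Has1, Has2 and Has3, taken by symbol. Of these 10, 8 were among the 14533 genes listed, and Aqp11 and Has1 were not analysed here.

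Libraries were made from epidermal scrapings of 12 untreated C57BL/6 mice, 1 for each of 6 WT and 6 Pparg-/-epi animals. Both groups carried 2 floxed Pparg alleles. The Pparg-/-epi mice also carried Cre driven by the Keratin 14 promoter (Cre+/-), which is active in basal keratinocytes and in the cells that descend from them, and the WT controls from the same crosses had no Cre (Cre-/-). The labels gave ages of 8 to 13 weeks in both groups, with 3 female and 3 male WT mice and 4 female and 2 male Pparg-/-epi mice. Non-lesional dorsal skin was scraped into the superficial dermis, so cells other than keratinocytes could be included. Total counts per library ranged from 10120840 to 18851255, and 3 counts corresponded to 0.156 to 0.320 CPM (counts divided by the TMM-scaled size of each library). Pparg, on chromosome 6, differed by a log2 fold change of -0.10 (SE 0.71, adjusted p = 0.949), so its level does not separate the genotypes. WT replicate 2 held 14.3 CPM, and when it was left out the change was 0.86 on the log2 scale. The floxed allele is known to leave a shortened transcript after Cre, and whether that transcript or cells without Cre supplied these counts was not tested. The keratinocyte list (Krt5, Krt14, Krt1, Krt10, Krt2, Lor, Dsg1a and Krtdap) summed to 17746 to 46897 CPM in WT and 29248 to 54216 CPM with Pparg-/-epi. WT replicate 2 held the lowest sum, and WT replicate 5 held 11966 CPM of skeletal muscle genes against at most 491 CPM in any other mouse.

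PPARγ, the protein made from Pparg, is a nuclear receptor that binds DNA with a partner at direct repeat 1, a pair of AGGTCA half-sites with 1 base between them. In fat cells it is known to raise Aqp7, a glycerol channel, and Gpd1, which makes glycerol 3-phosphate for fat. The 250 bases before the start site are shown for Aqp3 and Aqp7, the first because it is the gene that rose and the second because it is its nearest listed gene on that side, on the same strand, and carries a match to the repeat. Capitals mark a GC box (GGGCGG or its reverse complement) and a TATA box (TATAAA) in Aqp3, and the direct repeat 1 match on the reverse strand in Aqp7. Both strands were searched, and the sequences are from RefSeq annotation of GRCm38.p6, 5′ to 3′ on the minus strand.

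Aqp3, chr4:41098184-41098433: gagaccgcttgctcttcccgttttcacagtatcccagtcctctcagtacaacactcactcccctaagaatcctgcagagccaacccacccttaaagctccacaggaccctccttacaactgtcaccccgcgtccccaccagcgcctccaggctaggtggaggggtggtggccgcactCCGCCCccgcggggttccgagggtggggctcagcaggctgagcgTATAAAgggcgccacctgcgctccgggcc
Aqp7, chr4:41048137-41048386: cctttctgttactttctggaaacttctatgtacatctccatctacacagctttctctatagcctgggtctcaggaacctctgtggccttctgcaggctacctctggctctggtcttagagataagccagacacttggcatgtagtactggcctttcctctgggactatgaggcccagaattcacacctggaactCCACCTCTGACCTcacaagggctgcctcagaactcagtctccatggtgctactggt

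In the Aqp3 window the TATA box started 29 bases and the GC box 73 bases before the start site. The AGGTCA half-site was not in this window, and its best match to direct repeat 1 had 5 mismatches. In the Aqp7 window the half-site started 49 bases before the start site, within a direct repeat 1 match with 2 mismatches. Of 32851 annotated windows of this length, 14.0% held the half-site, 12.4% the TATA box, 32.7% the GC box and 3.24% a direct repeat 1 match with at most 2 mismatches. Windows were matched for 5 of the 8 listed genes. Aqp1 held 1 GC box and Aqp5 held 2 GC boxes, and Aqp9 held none of these letters. Gpd1, Has2 and Has3 had no window in the table. The matches are descriptions of letters, and binding was not measured.

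Of the 8 listed genes, 1 rose in Pparg-/-epi mice, 0 fell and 7 did not pass the test. The gene that rose was Aqp3, the water and glycerol channel of basal keratinocytes, which was 5.18-fold higher. A gene counted as altered where its log2 fold change reached 0.6 in either direction with an adjusted p under 0.05 (edgeR's quasi-likelihood test, Benjamini-Hochberg adjustment over all 14533 genes). Of all genes, 10.3% were altered, 5.19% higher and 5.08% lower. The groups did not overlap for 1 of the 8 genes, again Aqp3, against 7.90% of all genes. The median log2 fold change of the 8 genes was 0.64, and that of all genes was -0.01. The other 7 genes ranged from a log2 fold change of -2.44 for Gpd1 to 0.72 for Has2.

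**Figure D1:**
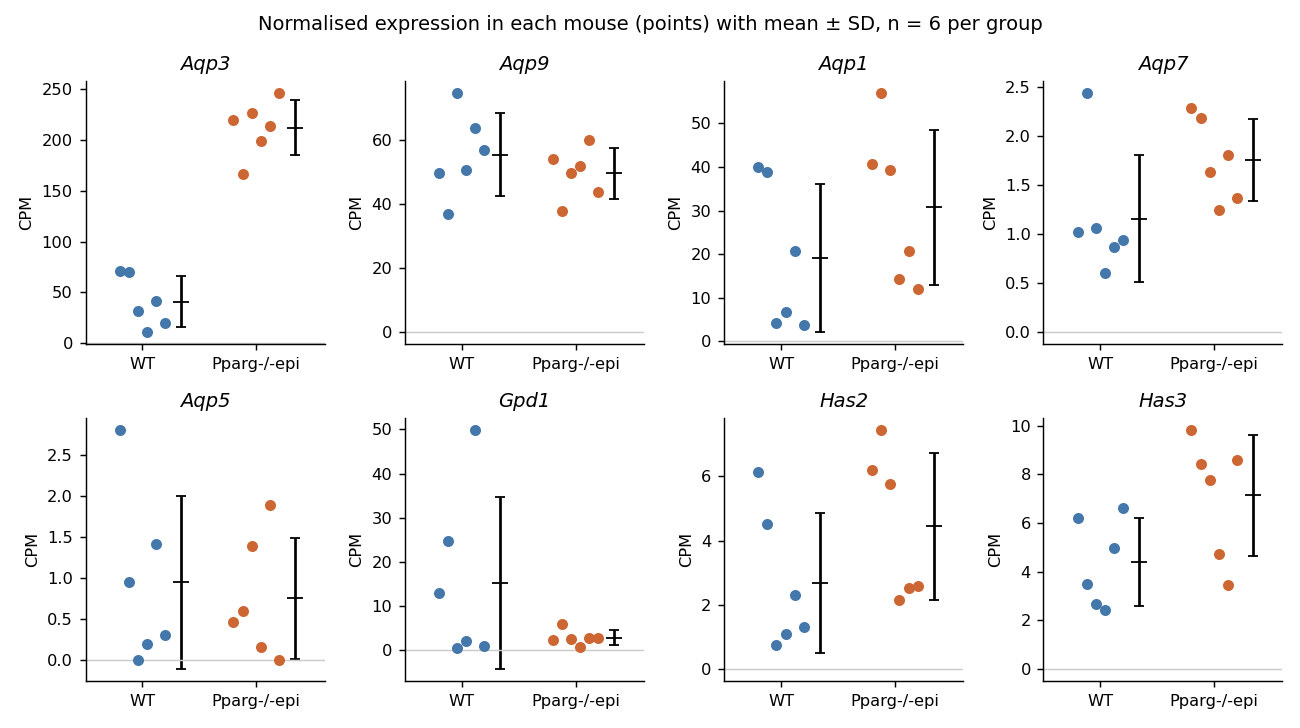
CPM of each listed gene (vertical axis, linear) in each of 6 WT and 6 Pparg-/-epi mice, with points in replicate order and the mean ± SD beside them. Aqp3 is the gene whose groups separate, at 10.6 to 71.1 CPM in WT and 167 to 246 CPM in Pparg-/-epi mice.

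Aqp3 lies on chromosome 4 from 41092724 to 41098183 of mm10, on the minus strand, and its listed exons span 1763 bases. It ranged from 10.6 to 71.1 CPM in WT mice (median 36.7) and from 167 to 246 CPM in Pparg-/-epi mice (median 217). The lowest Pparg-/-epi mouse, replicate 8, was thus above the highest WT mouse, replicate 1. The means were 40.9 ± 25.3 CPM (SD, n = 6) and 212 ± 27.1 CPM (SD, n = 6), a log2 fold change of 2.37 (SE 0.38, 95% interval 1.54 to 3.20, adjusted p = 0.00173). Counts behind these levels were 158 to 1323 for WT libraries and 2361 to 4224 for Pparg-/-epi libraries. The coefficient of variation was 61.9% in WT and 12.8% in Pparg-/-epi mice. Among the 754 genes that rose, Aqp3 had the 93rd largest log2 fold change. Per unit of transcript length its mean was 23.2 RPKM in WT and 120 RPKM in Pparg-/-epi mice, rank 3325 and rank 503 of all genes.

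The WT level of Aqp3 differed with the mouse names in the labels. WT replicates 1 and 2, the 2 WT mice with earlier name numbers, held 71.1 and 70.2 CPM, and the 4 with later numbers held 10.6 to 41.6 CPM. Among mice with earlier names (2 WT and 4 Pparg-/-epi) the log2 fold change of Aqp3 was 1.53 (edgeR, adjusted p = 0.0149, with 0.901% of all genes altered), and among mice with later names (4 WT and 2 Pparg-/-epi) it was 3.14 (edgeR, adjusted p = 0.00501, with 7.47% altered). The difference between these values was not tested. The name number used is the first varying part of each name, and some numbers are shared by several mice. Name numbers are not stated to mark a litter or a preparation day, and this split was chosen after the data were seen. The last part of the name is the same for Pparg-/-epi replicates 7 and 8. The labels give these as separate samples, aged 12 and 13 weeks. The 2 WT mice with earlier names were also the youngest of the 6, at 8 and 9 weeks against 12 to 13, and had the highest RNA integrity numbers (RIN), 7.4 and 8.6 against 5.9 to 7.1, so name, age and RNA quality cannot be told apart in WT. The log2 fold change of Aqp3 was 2.33 with the name split as a block, 2.60 with age and 2.31 with RIN as a covariate, and each kept the call. Only 1 name number was held by mice of both genotypes. The block therefore cannot allow for name number itself, which is largely confounded with genotype.

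Sex was also examined. In the 7 female mice alone the log2 fold change of Aqp3 was 2.62 (edgeR, adjusted p = 0.0502), which missed the threshold, and 4.48% of all genes were altered. It was 2.19 in the 5 male mice (edgeR, adjusted p = 0.0816), which also missed it, and there 0.124% of all genes were altered. The difference between the sexes, -0.41 on the log2 scale, did not pass the test (edgeR's interaction term, adjusted p = 0.956). At an adjusted p under 0.05 the interaction was found for 0.00% of all genes, and at an unadjusted p under 0.05 for 5.10% of genes and for 1 of the 8, Aqp5.

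**Figure D2:**
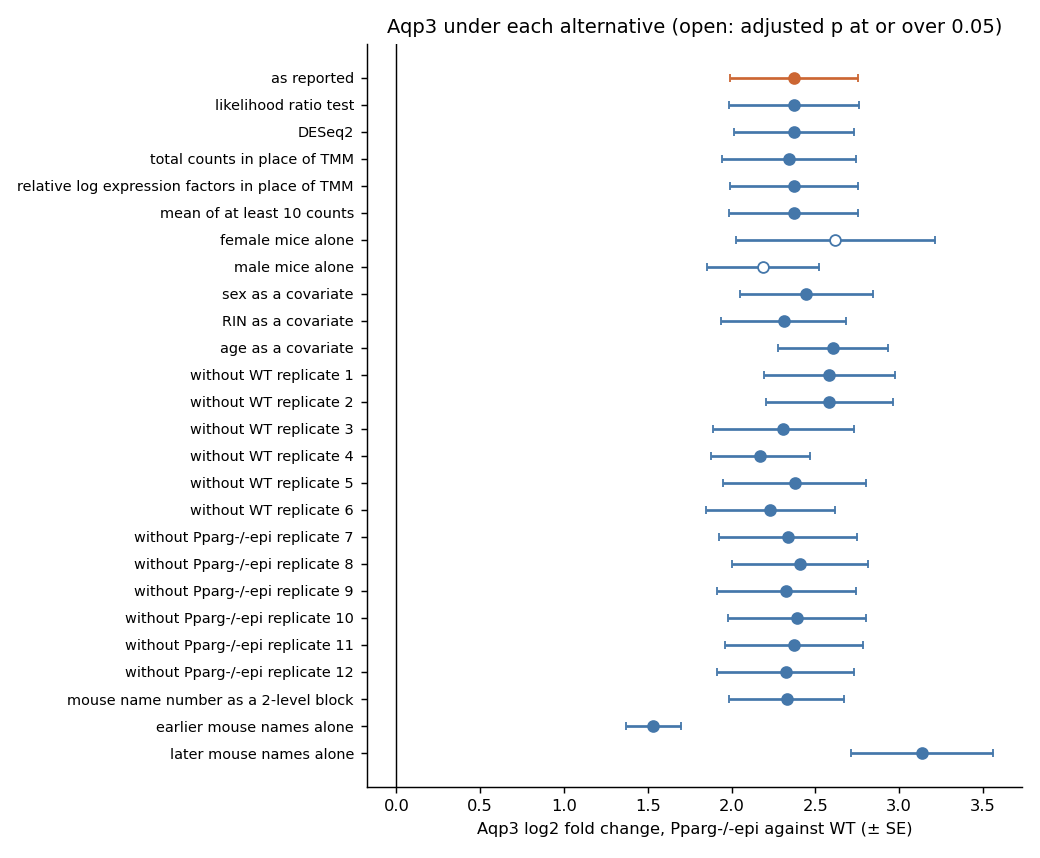
Log2 fold change of Aqp3 (horizontal axis, ± SE) as reported and under each alternative fit, with open points where the adjusted p was at or over 0.05. Values run from 1.53 with earlier mouse names alone to 3.14 with later names alone, and the open points are the fits on female mice alone and on male mice alone.

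Aqp3 was set against the amount of keratinocyte transcript in each scraping. Per 1000 CPM of the keratinocyte list it came to 0.298 to 3.96 CPM in WT mice (median 0.792) and to 3.67 to 5.79 CPM in Pparg-/-epi mice (median 5.18). One WT mouse, replicate 2, overlapped the Pparg-/-epi range. The means were 1.32 ± 1.37 and 4.98 ± 0.831 (exact permutation test, two-sided, p = 0.00433, adjusted over 7 such tests p = 0.0101). As a description within genotype, over 12 libraries, the Pearson correlation of Aqp3 with the keratinocyte list was -0.18. It was 0.72 with the summed sebaceous gland list, 0.71 with fibroblast genes and 0.60 with endothelial genes. Krt79, the 1 gene on the sebaceous gland list that rose, averaged 2669 CPM across Pparg-/-epi mice, where the summed list had a median of 2863 CPM. In those mice the sum of this list, here and below, was thus mostly Krt79. Its correlations there say little of the other genes on the list. Whether the ratio allows for the content of each scraping was not tested. Within the keratinocyte list, 1 of 8 genes was altered, Krt14, a keratin of basal cells, with a WT mean of 2565 CPM and a Pparg-/-epi mean of 5064 CPM (log2 fold change 0.98, SE 0.20, edgeR adjusted p = 0.00559). In a bulk library, fewer cells of a type and less RNA per cell cannot be told apart.

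Nearby genes were listed to see whether the region moved as a whole. Aqp7 lies 44587 bases from Aqp3, and Nol6, a nucleolar protein gene, lies 16243 bases away on the other side. Nol6 had a log2 fold change of 0.37 (SE 0.11, edgeR adjusted p = 0.0353), below the fold limit, and Nfx1 and Ube2r2, the next genes out, had 0.06 and 0.27. Aqp3 was the altered gene among these 5.

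The other aquaporins were Aqp9, Aqp1, Aqp7 and Aqp5. Aqp9, a glycerol and water channel best known in liver and leukocytes, lies on chromosome 9 from 71110659 to 71163289. It ranged from 36.9 to 74.7 CPM in WT mice (median 53.7) and from 37.8 to 60.1 CPM in Pparg-/-epi mice (median 50.8). The groups overlapped, and the means were 55.4 ± 13.0 and 49.6 ± 7.86 CPM (SD, n = 6). The log2 fold change was -0.16 (SE 0.16, 95% interval -0.50 to 0.19, edgeR adjusted p = 0.558). As a description within genotype, over 12 libraries, Aqp9 had a Pearson correlation of 0.83 with the keratinocyte list. Its correlation was -0.75 with the macrophage and dendritic cell list and 0.22 with the neutrophil list. Which cells supplied its counts was not tested.

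Aqp1, the water channel of blood vessel lining, lies on chromosome 6 from 55336299 to 55348555. Its level was 3.78 to 40.1 CPM in WT (median 13.7) and 11.9 to 57.0 CPM in Pparg-/-epi mice (median 30.1). Values were high in WT replicates 1 and 2 and in Pparg-/-epi replicates 7, 8 and 9, so the groups overlapped. Its log2 fold change was 0.69 (SE 0.62, edgeR adjusted p = 0.508), and it was -0.04 among mice with earlier names and -0.74 in male mice alone. Over the 12 libraries, after each genotype's mean was subtracted, Aqp1 had a Pearson correlation of 0.98 with the summed endothelial list (Pecam1, Cdh5, Kdr, Tek, Emcn, Cldn5, Egfl7 and Esam), a description that shares libraries and scaling. It was also 0.91 with the sebaceous gland list, 0.78 with adipocyte, 0.76 with macrophage and dendritic cell and 0.72 with fibroblast genes. The endothelial list summed to 7.87 to 125 CPM in WT and 35.2 to 188 CPM in Pparg-/-epi mice, and 1 of its 8 genes was altered, Emcn, which was higher. Per 100 CPM of the list, the Aqp1 level averaged 44.8 ± 9.75 CPM for WT and 30.5 ± 5.34 CPM for Pparg-/-epi mice (exact permutation test, two-sided, p = 0.0173, adjusted p = 0.0303). This ratio was chosen after the values were seen, and it overlapped between genotypes among mice with earlier names, with WT at 31.1 and 55.0 and Pparg-/-epi mice at 25.7 to 40.9.

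**Figure D3:**
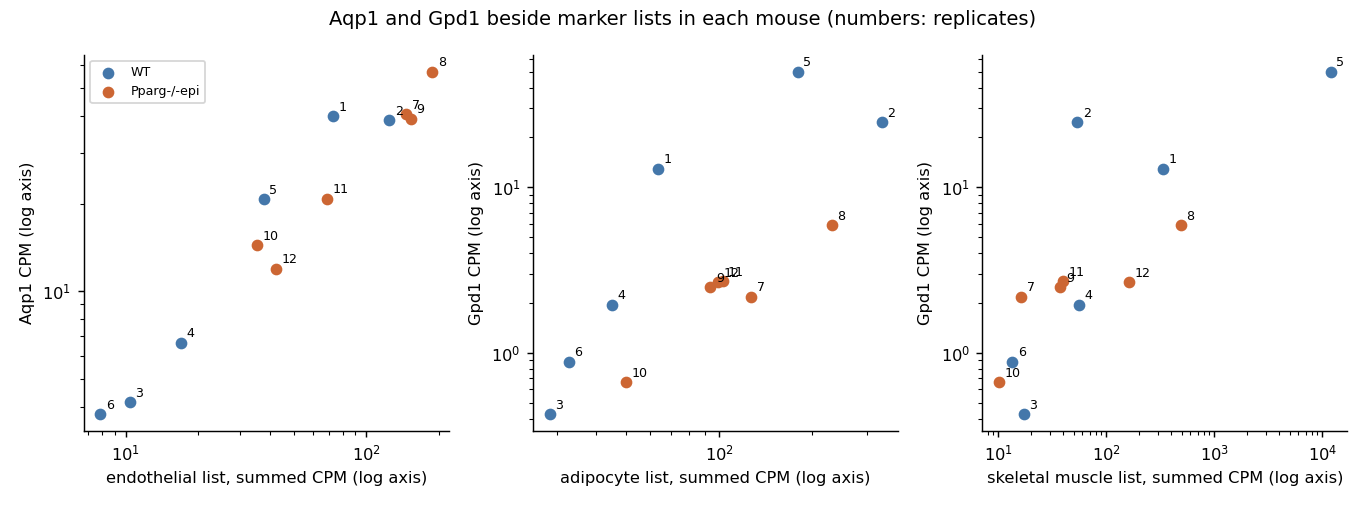
CPM of Aqp1 against the summed endothelial list, and of Gpd1 against the summed adipocyte and skeletal muscle lists (log axes, CPM), in each mouse, with replicate numbers beside the points. Aqp1 rises with the endothelial sum in both groups, and WT replicate 5 stands alone at 11966 CPM of skeletal muscle genes.

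Aqp7, on chromosome 4 from 41033074 to 41048136, was low. It ranged from 0.605 to 2.44 CPM in WT mice (median 0.983) and from 1.25 to 2.29 CPM in Pparg-/-epi mice (median 1.72), resting on 9 to 46 counts. WT replicate 2 was above every Pparg-/-epi mouse, and the remaining WT mice were below them all. The log2 fold change was 0.59 (SE 0.33, edgeR adjusted p = 0.261), and without WT replicate 2 it was 0.95 (edgeR, adjusted p = 0.0234), which passed both limits.

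Aqp5, a water channel of sweat and salivary glands, lies on chromosome 15 from 99591028 to 99594829. WT mice held 0 to 2.81 CPM (median 0.635) and Pparg-/-epi mice 0 to 1.90 CPM (median 0.537). The count was 0 in WT replicate 3 and in Pparg-/-epi replicate 12, which allows a level of up to 3 counts, and no mouse held more than 44 counts. The log2 fold change was -0.36 (SE 0.88, edgeR adjusted p = 0.833), and its 95% interval, -2.25 to 1.54, was too wide to give a direction at this depth. Its sign turned in 4 of the alternative fits.

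Compared per unit of transcript length, the 5 listed aquaporins summed to 25.05 to 73.01 RPKM in WT mice and 129 to 160 RPKM in Pparg-/-epi mice. Aqp3 made up 24.1% to 59.2% of the sum in WT mice (median 42.8%) and 73.5% to 88.0% in Pparg-/-epi mice (median 80.5%). The groups did not overlap in either measure. Both measures contain Aqp3, whose groups did not overlap, so the tests below restate its rise and are not separate support. The summed level averaged 48.96 ± 19.12 RPKM for WT and 148 ± 13.4 RPKM for Pparg-/-epi mice (SD, n = 6, two-sided exact permutation test, p = 0.00216, adjusted p = 0.00758). The Aqp3 share was 43.4% ± 12.8 in WT and 80.8% ± 4.82 in Pparg-/-epi mice (SD, n = 6, two-sided exact permutation test, p = 0.00216, which is the lowest p possible here, adjusted p = 0.00758). It was higher in Pparg-/-epi mice among earlier names (55.2% and 59.2% in WT, 73.5% to 83.4% in Pparg-/-epi) and among later names (24.1% to 44.6% in WT, 80.8% and 88.0% in Pparg-/-epi). In 3 WT mice, replicates 3, 4 and 6, Aqp9 exceeded Aqp3 in RPKM, and in all Pparg-/-epi mice Aqp3 was at least 6.27 times Aqp9.

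**Figure D4:**
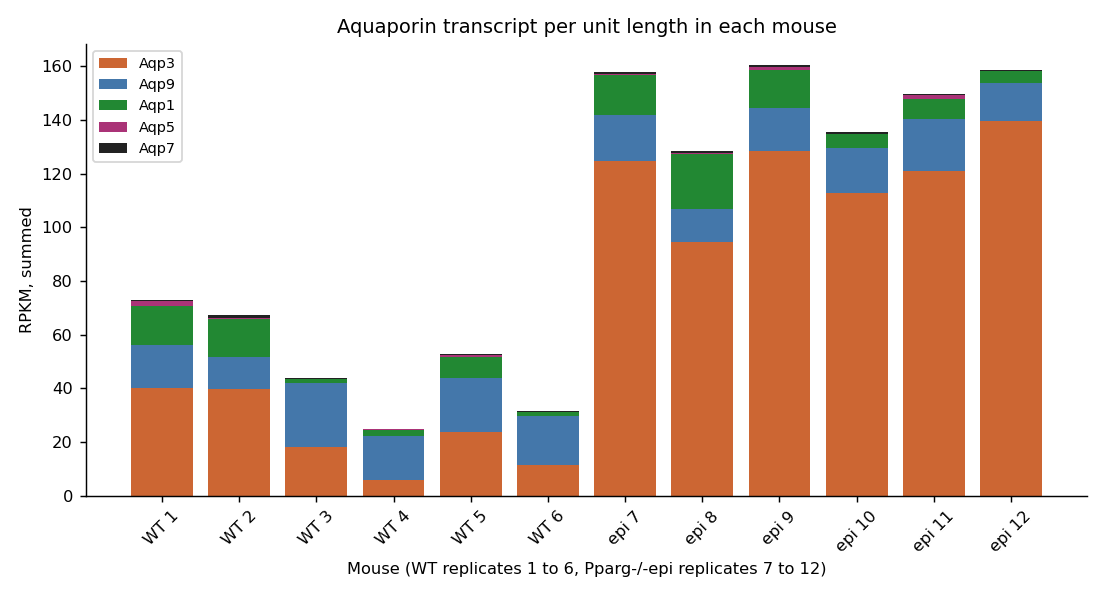
Summed RPKM of the 5 listed aquaporins in each mouse, stacked by gene, with WT replicates 1 to 6 first and Pparg-/-epi replicates 7 to 12 after them. The Aqp3 segment accounts for most of the difference in height, and the total is 25.05 to 73.01 RPKM in WT and 129 to 160 RPKM in Pparg-/-epi mice.

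Gpd1 encodes the cytosolic enzyme that makes glycerol 3-phosphate from a sugar intermediate, and lies on chromosome 15 from 99717593 to 99725007. WT mice ranged from 0.426 to 49.9 CPM (median 7.43), and Pparg-/-epi mice from 0.665 to 5.88 CPM (median 2.57). WT replicates 1, 2 and 5 were above every Pparg-/-epi mouse, at 12.9, 24.8 and 49.9 CPM, while WT replicates 3, 4 and 6 lay at or below 1.95 CPM. The log2 fold change was -2.44 (SE 0.95, edgeR adjusted p = 0.105), which did not pass, and it ranged from -2.84 to -1.57 when single mice were left out. The edgeR likelihood ratio test and DESeq2 both called it, with adjusted p values of 0.0462 and 0.0499.

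Gpd1 followed the adipocyte list over the 12 libraries (Pearson correlation 0.89 within genotype, a description), and the genes most like it were Car3 and Plin4, which are abundant in fat cells, and Cers4, a ceramide synthase found in sebaceous glands. The correlation was 0.82 with the sebaceous gland list, 0.80 with the skeletal muscle list and 0.79 with the endothelial list. Of the 11 listed sebaceous gland genes 7 were lower in Pparg-/-epi mice, and Cers4 was lower as well (log2 fold change -2.38, SE 0.54, edgeR adjusted p = 0.0112). Krt79, on the same list, was higher, with a mean of 2669 CPM against 410 CPM for WT. It made up most of the Pparg-/-epi sum, whose median was 2863 CPM against 1236 CPM for WT. The correlation of 0.82 thus does not describe the 7 lower genes in Pparg-/-epi mice. The adipocyte list summed to 28.4 to 334 CPM in WT and 50.1 to 231 CPM in Pparg-/-epi mice, with 0 of 9 genes altered. Gpd1 per 100 CPM of that list averaged 10.7 ± 10.8 CPM for WT and 2.26 ± 0.584 CPM for Pparg-/-epi mice (exact permutation test, two-sided, p = 0.0346, adjusted p = 0.0485). The 7 tests adjusted together include both aquaporin measures that restate the Aqp3 rise. The adjusted p of this Gpd1 ratio, just under 0.05, depends on that set of tests and is weak evidence. The ratio was also chosen after the values were seen. Its ranges overlapped, at 1.498 to 27.9 and 1.33 to 2.67. The highest ratio was in WT replicate 5, the mouse with the large skeletal muscle signal, and the part of muscle, fat or sebaceous gland in the result was not tested. An antisense gene, Gm16537, shares 13.8% of the Gpd1 exon bases, and the counting was not stated to use strand, so its reads cannot be told apart.

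Has2 and Has3 build hyaluronan, Has2 mainly in fibroblasts and Has3 mainly in keratinocytes. Has2, on chromosome 15 from 56665627 to 56694546, ranged from 0.746 to 6.14 CPM in WT (median 1.81) and from 2.16 to 7.46 CPM in Pparg-/-epi mice (median 4.17). Like Aqp1, it was high in WT replicates 1 and 2 and in Pparg-/-epi replicates 7, 8 and 9, and the groups overlapped. RIN was 7.4 and 8.6 in these 2 WT mice and 7.7 to 8.6 in these 3 Pparg-/-epi mice, against 5.7 to 7.7 in the rest. Has2 differed by a log2 fold change of 0.72 (SE 0.52, edgeR adjusted p = 0.391), and by -0.40 in male mice alone. With RIN as a covariate it was 0.37 for Has2 and 0.39 for Aqp1. The correlation of Has2 within genotype was 0.94 with Aqp1, 0.87 with the sebaceous gland list and 0.63 with the fibroblast list, as a description over 12 libraries. With the endothelial list it was 0.92. Per 100 CPM of that list, Has2 averaged 8.07 ± 4.56 CPM for WT and 4.65 ± 1.17 CPM for Pparg-/-epi mice, which did not pass the test (exact permutation test, two-sided, p = 0.0584, adjusted p = 0.0682). The antisense gene Has2os shares 4.29% of its exon bases.

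Has3, on chromosome 8 from 106870242 to 106882902, ranged from 2.42 to 6.61 CPM in WT (median 4.24) and from 3.44 to 9.83 CPM in Pparg-/-epi mice (median 8.09). Pparg-/-epi replicates 7, 8, 9 and 12 were above every WT mouse, and replicates 10 and 11 lay within the WT range. Its log2 fold change was 0.70 (SE 0.32, 95% interval 0.01 to 1.39), with an edgeR adjusted p of 0.166. Has3 made up 58.4% ± 16.6 of Has2 and Has3 RPKM in WT and 54.7% ± 9.503 in Pparg-/-epi mice (SD, n = 6, exact permutation test, two-sided, p = 0.626).

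By mean RPKM the listed genes fell in the order Aqp3, Aqp9, Aqp1, Gpd1, Has3, Has2, Aqp5 and Aqp7 in WT mice. In WT the ranges of Aqp3 and Aqp9 overlapped, and so did those of each following pair. In Pparg-/-epi mice Aqp3 stood first, at 94.5 to 140 RPKM, above the highest Aqp1 or Aqp9 value, 20.7 RPKM. The genes whose pattern was most like that of Aqp3 within genotype, over 12 libraries and 14239 genes, included Acp5 and Kcnc4, with Pearson correlations of 0.95 and 0.94. For Aqp1 they were Pip4k2b, Egfl7 and Ednra (0.99, 0.98 and 0.98), for Has2 Hs2st1, Tmem184b and Tns1 (each 0.97), and for Aqp9 Scamp2, Mapk3 and Smarca4 (0.96, 0.96 and 0.94). Aqp7 was most like Slc31a1, Vhl and Gjb6 (0.95, 0.94 and 0.94), Has3 most like Pip4k2c, Kifc1 and Ppp5c (0.90, 0.87 and 0.87), and Aqp5 most like Dlgap1, Stat5b and Plcb1 (0.92, 0.88 and 0.87). These are descriptions of 12 points that share depth and scaling.

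Of 72 genes on 5 lists of the same pathways, 44 were listed, and 5 rose, 1 fell and 38 did not pass (13.6% altered, against 10.3% of all genes). On the glycerol enzyme list, 12 of 16 genes were listed, with 1 higher, 1 lower and 10 that did not pass. On the hyaluronan synthesis list 0 of 9 listed genes were altered, on the degradation list 1 of 9 rose, and on the list of receptors and binding proteins 2 of 9 rose. Median log2 fold changes were 0.59 for the aquaporins, -0.02 for the glycerol enzymes, 0.16 for synthesis, 0.02 for degradation and 0.64 for receptors and binding proteins.

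Mgll, the lipase that frees glycerol from monoglycerides, ranged from 66.6 to 377 CPM in WT (median 160) and from 39.2 to 56.4 CPM in Pparg-/-epi mice (median 52.1). All Pparg-/-epi mice were below all WT mice, and the log2 fold change was -2.0 (SE 0.37, edgeR adjusted p = 0.00393). The call was lost in female mice alone (-1.30, edgeR adjusted p = 0.0610), in male mice alone (-2.57, edgeR adjusted p = 0.154) and with later mouse names alone (-1.82, edgeR adjusted p = 0.137). Gpd2, the mitochondrial enzyme that oxidises glycerol 3-phosphate, ranged from 24.4 to 30.3 CPM in WT and from 34.3 to 50.1 CPM in Pparg-/-epi mice. These groups did not overlap either, with a log2 fold change of 0.64 (SE 0.11, edgeR adjusted p = 0.00204), and without Pparg-/-epi replicate 9 it was 0.57, below the fold limit. Gpd2 also lost the call in female mice alone (0.62, edgeR adjusted p = 0.0717) and in male mice alone (0.69, edgeR adjusted p = 0.162). With earlier names alone it did not pass either (0.59, edgeR adjusted p = 0.182). On the sebaceous gland list, 7 of 11 listed genes were lower and 1, Krt79, was higher in Pparg-/-epi mice. The part of these genes in the Mgll difference was not tested.

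Cemip, which takes part in hyaluronan breakdown, ranged from 0.316 to 1.66 CPM in WT and from 2.40 to 9.10 CPM in Pparg-/-epi mice. Its groups did not overlap, and the log2 fold change was 2.78 (SE 0.42, edgeR adjusted p = 0.00119). Cemip lost the call in male mice alone (2.02, edgeR adjusted p = 0.328) and with earlier names alone (2.26, edgeR adjusted p = 0.0534). Cd44, the main hyaluronan receptor of keratinocytes, ranged from 149 to 332 CPM in WT and from 479 to 688 CPM in Pparg-/-epi mice, without overlap. Its log2 fold change was 1.21 (SE 0.17, edgeR adjusted p = 9.65e-04). Cd44 also lost the call in male mice alone (1.45, edgeR adjusted p = 0.125) and with earlier names alone (0.86, edgeR adjusted p = 0.0764). Hmmr, a hyaluronan-binding protein also known from the dividing cell's spindle, ranged from 6.19 to 17.5 CPM in WT and from 14.7 to 30.2 CPM in Pparg-/-epi mice. The ranges overlapped, with a log2 fold change of 1.06 (SE 0.29, edgeR adjusted p = 0.0290), and 6 of the 12 fits without a single mouse lost the call. The fits on female mice, male mice, earlier names and later names alone lost it too.

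**Figure D5:**
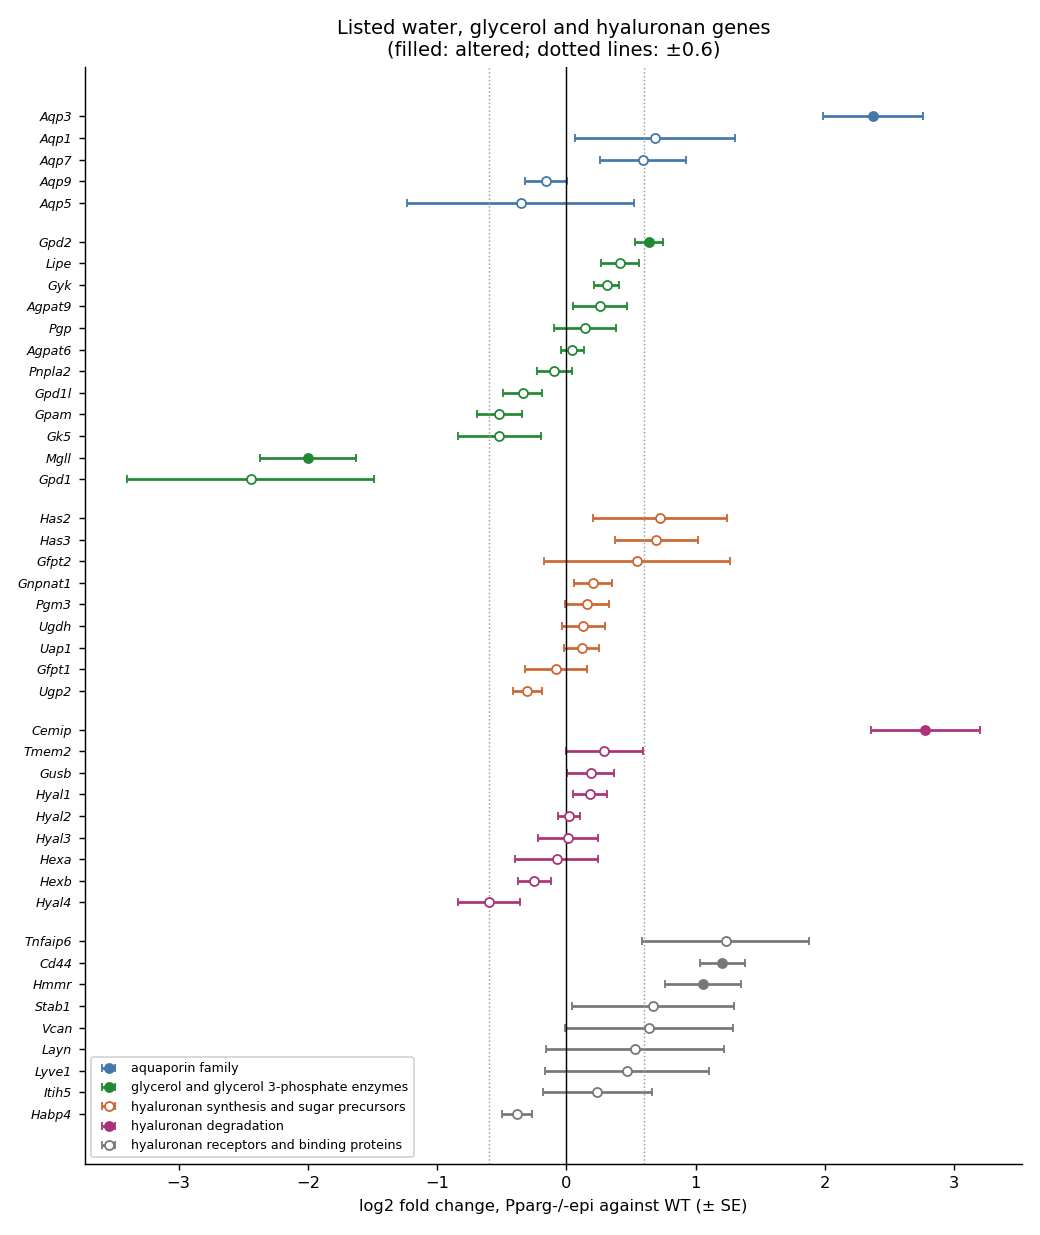
Log2 fold change (horizontal axis, ± SE) of the 44 listed genes of 5 pathway lists, coloured by list, with filled points for altered genes and dotted lines at the fold limit of 0.6. Aqp3, Gpd2, Cemip, Cd44 and Hmmr are filled on the right and Mgll on the left, and Gpd1 lies farther left with an open point.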

How the data were processed

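RNA of epidermal scrapings from 12 mice was sequenced with an mRNA library kit by the authors. Reads were aligned by the authors with STAR 2.5.2b to mm10, multi-mapped reads were removed, and the deposited values are counts per gene from featureCounts (Subread 1.5.1), not normalised. The deposited table lists 14533 genes, and 2800 blank rows were dropped. Of its per-sample columns, all 12 were used. 2 Pparg-/-epi libraries were tied to their columns by the run sheet of the study's supplement, because their labels lack the mouse name.

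Counts were scaled by TMM and tested with edgeR 4.0.16 in R 4.3.3 (quasi-likelihood, genotype as the only term), with Benjamini-Hochberg adjustment over all genes. Standard errors are the log2 fold change divided by the square root of F, and 95% intervals use the test's degrees of freedom. Per-length values (RPKM) are CPM per 1000 bases of deposited gene length. Single values per mouse were compared with exact permutation tests. The study's likelihood ratio test, DESeq2 1.42.0, other scalings, covariates and fits without single mice were alternatives. Of these tests, the quasi-likelihood test of genotype was run on simulated counts first. Plots were made with Python 3.11.15 and matplotlib 3.10.9.

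The genes and lists were chosen with earlier results of these data known. Named were all 10 genes, Pparg, altered genes of the pathway lists, the 3 genes of most like pattern (1 of them is not reported here), and marker genes where a result moved with them. Neighbouring genes and the marker ratios were chosen after values were seen. Intervals give the uncertainty of the difference between the genotype means, with mice as the replicates.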

Additional observations from a re-analysis of the deposited data

Results flagged for a closer look

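Aqp7 in WT replicate 2 stood apart from the other WT mice, at 2.44 CPM against 0.605 to 1.06 CPM in the other 5, with a gap to the nearest value of 0.749 of the group's range. Chance alone sets about 1 group of 6 in 20 apart by this measure, and 16 groups were examined, 8 genes in each genotype. The same mouse held the lowest keratinocyte list sum, 17746 CPM, and the highest WT endothelial and adipocyte sums, 125 and 334 CPM. The part of these in the Aqp7 value was not tested.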

How the results depend on the processing

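Aqp3 kept its direction and its call in every alternative fit except those on female mice alone (adjusted p = 0.0502) and on male mice alone (adjusted p = 0.0816, 3 WT and 2 Pparg-/-epi, added after seeing the data), with a log2 fold change of 2.17 to 2.58 when single mice were left out. Of the listed genes, 2 were altered by the likelihood ratio test and 2 by DESeq2 (Gpd1 joined Aqp3), 0 in female mice alone, 0 in male mice alone, and 1 to 2 without single mice (Aqp7 joined without WT replicate 2). Altered genes over all listed genes numbered 1493, against 651 in female mice alone, 18 in male mice alone, 131 with earlier mouse names alone and 1116 to 2249 without single mice, the highest without WT replicate 2. Of the pathway genes, 6 were altered, against 2 in female mice alone, 0 in male mice alone and 2 with earlier names alone. The interaction with sex was found for 0 of the 8 genes in every fit run, also by the likelihood ratio test. The sign turned for Aqp5 in female mice alone (1.09), with age as a covariate (0.0235), without WT replicate 1 (0.34; -0.82 to 0.34 without single mice) and with later names alone (0.92). It turned for Aqp9 in female mice alone (0.0615), with RIN, the RNA integrity number, as a covariate (0.00607) and with earlier names alone (0.17), for Aqp1 with earlier names alone (-0.0447) and in male mice alone (-0.74), for Has2 in male mice alone (-0.40), and for Pparg with age as a covariate (0.35), without WT replicate 2 (0.86), without Pparg-/-epi replicate 10 (0.08), without replicate 12 (0.03; -0.32 to 0.86 without single mice) and with later names alone (0.52). The cause was not tested, but the smaller fits hold fewer mice. No paired analysis was possible because the replicate numbers of the groups are not shared, and 1 mouse name number is shared by 1 WT and 1 Pparg-/-epi mouse. With the earlier and later names as a block, chosen after the data were seen, Aqp3 was called (2.33, adjusted p = 0.00117) and 1354 genes were altered. This block cannot allow for each name number. Low counts limit Aqp5, Aqp7, Has2 and, in WT mice, Cemip.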
